A study of Mus musculus with 16 samples.

Results

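CC chemokines are small secreted proteins that draw leukocytes along a gradient, and 9 of their genes were followed here through osteoclast formation: Ccl2, Ccl3, Ccl4, Ccl5, Ccl6, Ccl7, Ccl9, Ccl12 and Ccl22. Each of the 9 was measured by 1 feature of the array that names a single gene, out of 22180 genes measured in that way, and each lay above the filter on dim genes. The arrays hold RNA of bone marrow-derived macrophages from male C57BL/6 mice aged 5 weeks, cultured with M-CSF, the growth factor that keeps macrophages alive, and RANKL, the cytokine that turns them into bone-resorbing osteoclasts. The control treatment is called DW in the labels. The other treatment was dimethyl α-ketoglutarate at 1 mM, the esterified form of a metabolite of the tricarboxylic acid cycle, written αKG here. All 16 arrays share M-CSF. The 2 arrays at 0 h had DW and no RANKL. RANKL was present for 3, 6, 12, 24, 48 or 72 h in 6 DW arrays, and for these times or 0.5 or 1 h in 8 αKG arrays, with a single array for each condition and time. The phase in the labels joins 2 neighbouring times into a group: the early phase covers 3 and 6 h, the intermediate phase 12 and 24 h, the late phase 48 and 72 h, and a fast phase with αKG only covers 0.5 and 1 h. The labels tie no array to a culture or animal of its own, so each p-value reflects how far these arrays scatter, which may be technical. In the comparisons with 0 h that scatter includes time within a phase; the other fits take time into account.

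CC chemokines carry a pair of adjacent cysteines near the amino end and act through receptors coupled to G proteins. Ccl2, Ccl7 and Ccl12 are the monocyte chemoattractants that act on Ccr2, the receptor by which inflammatory monocytes leave the marrow. Ccl3 and Ccl4 are the macrophage inflammatory proteins, and Ccl5 shares the receptor Ccr1 with Ccl3. Ccl6 and Ccl9 are rodent ligands of Ccr1, a receptor known on osteoclasts and their precursors. Ccl22 acts on Ccr4 of T cells. Macrophages make many of these proteins when NF-κB, the transcription factor family downstream of RANKL and of inflammatory signals, is active.

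In the mouse gene table (RefSeq, GRCm38.p6) 8 of the 9 genes lie on chromosome 11. Ccl2 and Ccl7 are neighbours there and are followed by Ccl11, Ccl12, Ccl8 and Ccl1. Farther along, Ccl5, Ccl9, Ccl6, Ccl3 and Ccl4 follow each other. The listed spans of Ccl3 and Ccl4 overlap. Ccl22 lies on chromosome 8. Close relatives such as Ccl2, Ccl7 and Ccl12, or Ccl3 and Ccl4, may share probe sequence, which was not tested.

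Promoter sequences were found in the RefSeq table for 5 of the 9 genes: Ccl3, Ccl6, Ccl9, Ccl12 and Ccl22. The 250 bases before the start are given for 4 of them, since Ccl12 had the deepest swings with time of the 5, Ccl3 and Ccl6 were higher with αKG in late arrays, and Ccl9 stayed nearly level beside its neighbour Ccl6. Ccl12 is at chr11:82101595-82101844 on the + strand, Ccl3 at chr11:83649379-83649628, Ccl6 at chr11:83593088-83593337 and Ccl9 at chr11:83578637-83578886, these 3 on the - strand (GRCm38.p6). Each is written 5′ to 3′ along its gene, and capitals mark motif matches.
Ccl12: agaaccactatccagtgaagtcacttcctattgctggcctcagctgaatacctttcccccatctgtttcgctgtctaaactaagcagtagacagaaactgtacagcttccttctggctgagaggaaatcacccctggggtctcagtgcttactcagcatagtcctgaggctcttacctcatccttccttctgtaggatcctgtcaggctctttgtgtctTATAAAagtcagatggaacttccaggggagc
Ccl3: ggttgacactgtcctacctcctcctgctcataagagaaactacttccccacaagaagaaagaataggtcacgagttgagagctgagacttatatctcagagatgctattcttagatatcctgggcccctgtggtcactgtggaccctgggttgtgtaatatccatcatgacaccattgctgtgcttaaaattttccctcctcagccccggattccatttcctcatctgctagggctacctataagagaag
Ccl6: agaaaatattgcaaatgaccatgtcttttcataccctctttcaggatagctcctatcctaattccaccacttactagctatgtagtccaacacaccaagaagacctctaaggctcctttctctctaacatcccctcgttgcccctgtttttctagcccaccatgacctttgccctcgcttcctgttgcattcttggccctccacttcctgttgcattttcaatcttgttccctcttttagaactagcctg
Ccl9: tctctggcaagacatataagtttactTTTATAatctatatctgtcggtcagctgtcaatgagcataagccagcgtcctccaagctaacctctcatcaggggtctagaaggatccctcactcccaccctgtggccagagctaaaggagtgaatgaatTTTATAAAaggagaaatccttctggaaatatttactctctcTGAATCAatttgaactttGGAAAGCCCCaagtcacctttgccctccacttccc

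The motifs searched on both strands were the κB frame (GGG and CC with any 5 bases between them), the AP-1 site TGANTCA, the core of the antioxidant response element TGACNNNGC and the TATA box TATAAA. Ccl12 held a TATA box whose first base stands at position -31 from the start. Ccl9 held the κB frame with its first base at -35, an AP-1 site at -53 and 3 TATA box matches, 2 of which overlap. Ccl3 and Ccl6 held none of these letters in this window. Of all 32851 windows of this length in the table, 45.8% held the κB frame, 6.75% the AP-1 site, 10.2% the antioxidant core and 12.4% the TATA box.

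Macrophage marker genes were bright on all arrays. The mean log2 level of 5 such markers (Adgre1, Csf1r, Cd68, Itgam and Lyz2) lay between 11.24 and 11.86 on the 16 arrays. The mean hides changes of single markers: Adgre1 and Csf1r passed the limma F-test for time, against 33.6% of all genes. The mean of 8 osteoclast markers stood at 5.18 and 5.19 at 0 h, at 9.83 to 11.33 in late DW arrays and at 8.10 to 9.52 in late αKG arrays. Neutrophil markers (7 genes) fell from 7.77 and 7.82 at 0 h to between 4.94 and 5.34 in late DW arrays and between 5.06 and 5.72 in late αKG arrays. T and NK cell markers ranged from 4.09 to 4.41, with 4 of 6 under the dim filter; B cell markers ranged from 4.22 to 4.62, mast cell and basophil markers from 2.81 to 3.25 (4 of 4 under the filter), dendritic cell markers from 4.86 to 5.12 and stromal markers from 4.95 to 5.56. The part of these cells in the chemokine results was not tested, and fewer cells of a type and less RNA per cell cannot be told apart. The DW array at 72 h had the lowest mean correlation with the other arrays (0.928). Log2 values are as deposited; adjusted p-values come from limma over 15526 genes, with a threshold of 0.05, and ± gives the standard error.

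The chemokines changed strongly with time in both arms. Since the 9 genes were chosen with earlier results of these data known, setting their share against that of all genes is a description. In the fit of 6 matched times with arm as a covariate, 8 of the 9 genes passed the limma F-test for time, against 33.6% of all genes; Ccl6 was the exception (adjusted p = 0.160), and Ccl9 did not pass without the pair at 12 h (adjusted p = 0.129) or 24 h (adjusted p = 0.0657), nor without the intensity trend (adjusted p = 0.0562). They did not follow 1 course, though the shapes described here are not sharply apart. Ccl2, Ccl7 and Ccl12 fell deeply by 12 h and rebounded at 24 h. Ccl3 and Ccl4 were highest at 3 h and lower after it, with a smaller rise from 12 to 24 h in both arms. Ccl5 rose to a maximum at 12 h. Ccl9 and Ccl22 moved least. Ccl6 had a range of 1.10 log2 with αKG but 2.53 with DW, near the 2.61 of Ccl5 with DW. With a single line in log2 time in place of the 6 levels, 3 genes passed (Ccl3, Ccl4 and Ccl22).

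**Figure D1:**
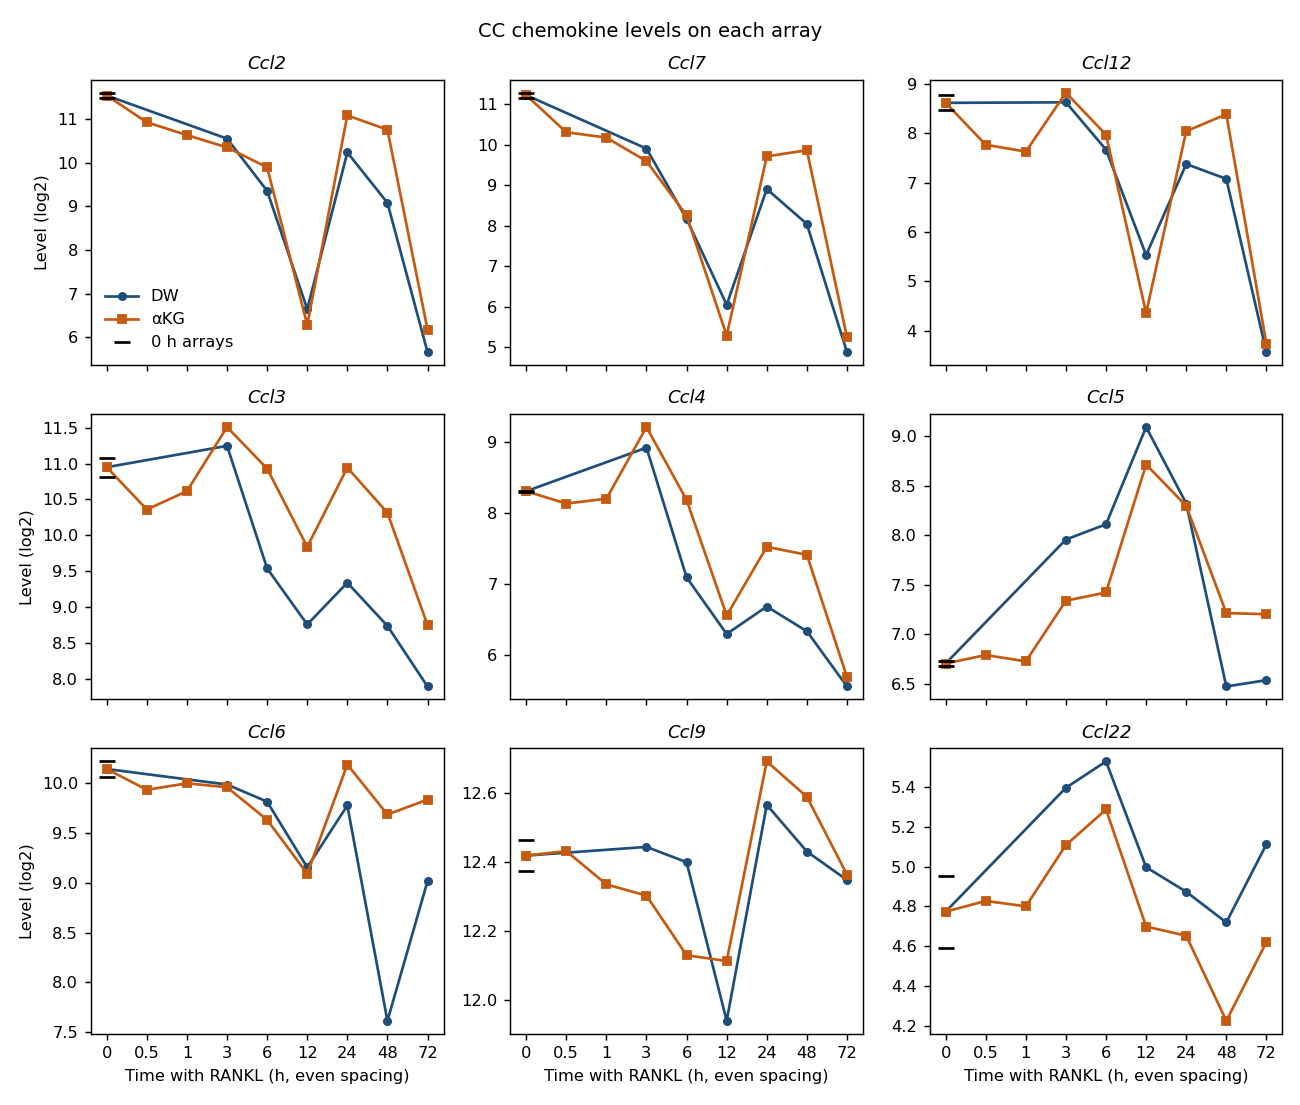
Log2 level of each CC chemokine gene on each of the 16 arrays against time with RANKL; circles are DW, squares αKG, short bars the 2 arrays at 0 h, and lines join the array values from the 0 h mean. Ccl2, Ccl7 and Ccl12 are low at 12 and 72 h in both arms, and Ccl5 is highest at 12 h.

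Ccl2, the main monocyte attractant, stood at 11.60 and 11.47 at 0 h. With DW it was 10.55, 9.35, 6.64, 10.23, 9.08 and 5.66 at 3, 6, 12, 24, 48 and 72 h. With αKG it was 10.92 and 10.63 in the first hour, and 10.35, 9.89, 6.28, 11.08, 10.75 and 6.17 at the matched times. All arrays with RANKL lay below both 0 h arrays, and the 12 h and 72 h arrays lay lowest in both arms.

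Ccl7, which acts on several receptors of monocytes, took the same course. It stood at 11.28 and 11.16 at 0 h. With DW it was 9.90, 8.17, 6.04, 8.90, 8.04 and 4.88 at 3, 6, 12, 24, 48 and 72 h. With αKG it was 10.30 and 10.17 at 0.5 and 1 h, and 9.59, 8.25, 5.28, 9.71, 9.86 and 5.25 at the matched times. The 12 h and 72 h values of both arms lay under every other value of this gene. Ccl12, a mouse relative of Ccl2, began at 8.77 and 8.47 and differed in that it was still at 8.63 with DW and 8.83 with αKG at 3 h. Later DW values were 7.67, 5.53, 7.38, 7.08 and 3.56 at 6, 12, 24, 48 and 72 h. Its αKG values were 7.77 and 7.63 in the first hour, and 7.97, 4.35, 8.05, 8.39 and 3.73 from 6 h on. The lowest arrays were again those at 72 and 12 h.

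Both low points were tested over the arms with contrasts that were chosen after the values were seen. At 12 h against the mean of 6 and 24 h, 6 of 9 genes were lower and 0 higher, against 15.2% of all genes called in either direction; the median was -0.89 log2 for the 9 genes and -0.01 for all genes. Ccl2 was lower by -3.68 ± 0.34 (adjusted p = 0.000341), Ccl7 by -3.09 ± 0.41 (adjusted p = 0.00136) and Ccl12 by -2.82 ± 0.37 (adjusted p = 0.00135). Ccl3 (-0.89 ± 0.24), Ccl4 (-0.95 ± 0.21) and Ccl9 (-0.42 ± 0.09) were the other 3. When the DW or the αKG array at 12 h was left out, Ccl2, Ccl7 and Ccl12 passed and the other 3 did not (adjusted p from 0.0559 to 0.213). Ccl3 and Ccl4 also missed the threshold without the αKG array at 6 h (adjusted p = 0.105 and 0.0543), and Ccl3 without the αKG array at 24 h (adjusted p = 0.0944). Ccl6 (-0.73) passed without the DW or the αKG array at 48 h (adjusted p = 0.0395 and 0.0400), and Ccl5 (0.86, higher at 12 h) without the DW or the αKG array at 72 h (adjusted p = 0.0262 and 0.0263).

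At 72 h against 48 h, 5 genes were lower and 1 higher, against 19.6% of all genes, with a median of -1.20 log2 for the 9 genes and -0.01 for all genes. Ccl12 was lower by -4.09 ± 0.43 (adjusted p = 0.000468), Ccl2 by -4.00 ± 0.39 (adjusted p = 0.000359) and Ccl7 by -3.89 ± 0.47 (adjusted p = 0.000902). Ccl3 (-1.20 ± 0.27) and Ccl4 (-1.25 ± 0.24) were lower too, and Ccl22 was higher (0.40 ± 0.12, adjusted p = 0.0486). Without the αKG array at 48 h Ccl3 (adjusted p = 0.126) and Ccl4 (adjusted p = 0.0746) did not pass, while Ccl6 did (1.72, adjusted p = 0.0113). Ccl22 missed the threshold in 11 of 12 fits that left out 1 array (adjusted p from 0.0641 to 0.272). The Ccl22 call was also lost with no filter on dim genes (adjusted p = 0.0737). Quantile normalization (adjusted p = 0.0524) and median centring (adjusted p = 0.0548) lost it too. On chromosome 11, neighbouring Ccl genes of the cluster of Ccl2, Ccl7 and Ccl12 were dim throughout. Over all 16 arrays Ccl11 ranged from 4.35 to 4.95, Ccl8 from 3.84 to 4.67 and Ccl1 from 4.31 to 4.60. Their means lay under (Ccl8) or just above the dim filter at 4.34. Whether falls of the size seen in Ccl2, Ccl7 and Ccl12 could be measured from such levels was not tested.

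**Figure D2:**
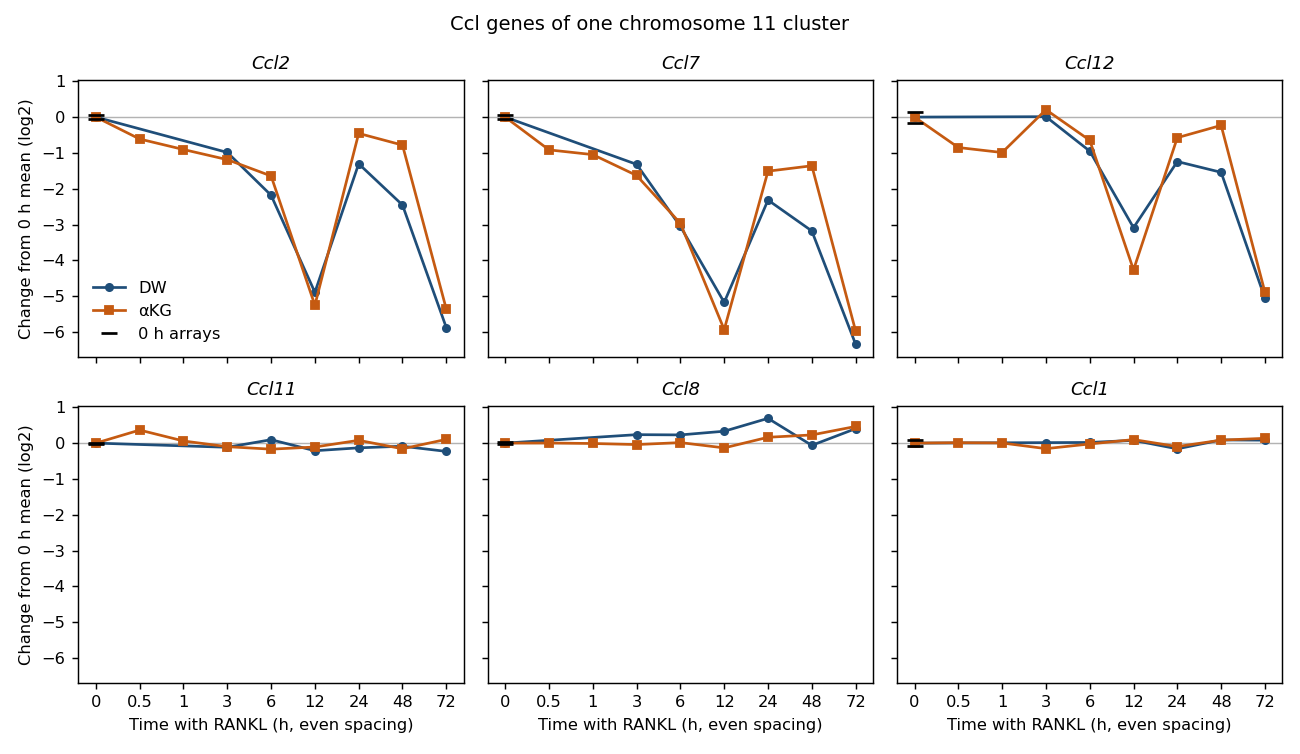
Change in log2 level from the mean of the 2 arrays at 0 h against time with RANKL for 6 Ccl genes of 1 stretch of chromosome 11, on 1 scale; circles are DW, squares αKG, short bars the 0 h arrays. Ccl2, Ccl7 and Ccl12 drop at 12 and 72 h, while Ccl11, Ccl8 and Ccl1, dim on every array, stay within 1 log2 of 0 h.

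Because a phase joins 2 unlike times, comparisons with 0 h had wide errors for these 3 genes. In late DW arrays Ccl2 stood at -4.17 ± 1.77 log2 (adjusted p = 0.205), Ccl7 at -4.76 ± 1.69 (adjusted p = 0.129) and Ccl12 at -3.30 ± 1.54 (adjusted p = 0.248), and none passed. In the first hour with αKG and RANKL, Ccl2 stood at -0.76, Ccl7 at -0.98 and Ccl12 at -0.92. Here 0 of 9 genes passed (0 at an unadjusted p under 0.05), as did 0% of all genes in this fit (540 at an unadjusted p under 0.05). These 3 genes passed when only those 2 groups were fitted (adjusted p = 0.0137, 0.000564 and 0.0118). In that comparison the effects of RANKL, of αKG and of culture time cannot be told apart. The same holds for the later αKG phases against 0 h. In the DW comparisons with 0 h, RANKL and culture time cannot be told apart, since every array after 0 h had RANKL.

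Ccl3 and Ccl4, attractants of monocytes and T cells, were highest at 3 h. Ccl3 stood at 11.08 and 10.82 at 0 h. With DW it was 11.25 at 3 h and then 9.54, 8.76, 9.34, 8.74 and 7.90 at 6, 12, 24, 48 and 72 h. With αKG it was 10.36 at 0.5 h, 10.62 at 1 h and 11.51 at 3 h, and then 10.93, 9.84, 10.94, 10.32 and 8.75. From 6 h on, all DW arrays lay under both 0 h arrays, while the αKG arrays at 6 and 24 h lay within the 0 h pair. Ccl4 was at 8.31 and 8.32 at 0 h. Its DW values were 8.93 at 3 h and 7.10, 6.30, 6.69, 6.34 and 5.56 at the later times. Its αKG values were 8.14 at 0.5 h, 8.21 at 1 h, 9.22 at 3 h, and 8.19, 6.56, 7.53, 7.42 and 5.70 after that. Both arms were above 0 h at 3 h and below it from 6 h on.

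Against 0 h, late DW arrays had 2 of 9 chemokine genes called, both lower, against 6.64% of all genes: Ccl3 (-2.63 ± 0.61, adjusted p = 0.0256) and Ccl6 (-1.83 ± 0.42, adjusted p = 0.0249). Ccl4 stood at -2.36 ± 0.64 (adjusted p = 0.0528) and passed with the lowest 50% of genes left out (adjusted p = 0.0473). Without the 48 h array, which leaves 1 late DW array, it stood at -2.75. The median of the 9 was -2.36 log2, and that of all genes 0.00. In the same arrays 7 of 7 neutrophil markers and 1 of 5 macrophage markers (Itgam, -0.52 ± 0.13) were lower and 7 of 8 osteoclast markers higher than at 0 h. Of the 5 macrophage markers, Itgam (10.27), Adgre1 (10.29), Csf1r (10.76) and Lyz2 (12.45) were at their lowest of the 16 arrays on the DW array at 48 h, as was Ccl6. The part of these markers in the falls was not tested. Neither call held without either 0 h array (adjusted p from 0.128 to 0.158). Ccl3 did not pass without the 72 h array (adjusted p = 0.168), and Ccl6 did not without the 48 h array (-1.13, adjusted p = 0.0740). With only the 2 groups compared in the fit, neither passed (adjusted p = 0.0539 for Ccl3 and 0.198 for Ccl6). In late αKG arrays 0 of 9 passed against the same 0 h arrays (3 at an unadjusted p under 0.05), against 1.43% of all genes (limma), with Ccl3 at -1.41 ± 0.61, Ccl4 at -1.76 ± 0.64 and a median of -1.41.

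Ccl5, which attracts T cells and monocytes, was the only member called higher than at 0 h in the fit of 8 groups. In both arms Ccl3 and Ccl4 at 3 h, and Ccl22 at 3 and 6 h, also stood above both 0 h arrays. Ccl5 stood at 6.73 and 6.68 at 0 h. With DW it was 7.96, 8.11, 9.09, 8.32, 6.47 and 6.54 at 3, 6, 12, 24, 48 and 72 h. With αKG it was 6.79 and 6.73 in the first hour, and 7.34, 7.42, 8.71, 8.29, 7.21 and 7.20 at the matched times. In both arms 12 h was the highest time, and late DW arrays lay under both 0 h arrays while late αKG arrays lay above them.

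In early DW arrays Ccl5 was higher than at 0 h by 1.33 ± 0.22 log2 (2.51-fold, adjusted p = 0.0271), the only 1 of 9 genes called, against 0.341% of all genes. In intermediate DW arrays it was again the 1 gene called, higher by 2.0 ± 0.22 log2 (3.99-fold, adjusted p = 0.00363), against 0.779% of all genes. With αKG and the same 0 h arrays, Ccl5 stood at 0.67 ± 0.22 in early arrays, where 0 of 9 passed (2 at an unadjusted p under 0.05) against 0.502% of all genes (limma). In intermediate αKG arrays it was the 1 gene called, higher by 1.80 ± 0.22 (adjusted p = 0.00639), against 0.67% of all genes. The early DW call was lost without any 1 of its 4 arrays (adjusted p from 0.176 to 0.285). The intermediate calls were lost without either 0 h array (adjusted p from 0.0558 to 0.100), and the αKG one also without its 12 h array (adjusted p = 0.0685). With only the 2 groups compared in the fit, neither intermediate value passed (adjusted p = 0.200 with DW and 0.0859 with αKG).

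Ccl6 and Ccl9, neighbours that both act on Ccr1, took unlike courses. Ccl6 stood at 10.22 and 10.07 at 0 h. With DW it was 9.99, 9.82, 9.16 and 9.78 at 3, 6, 12 and 24 h, then 7.61 at 48 h and 9.02 at 72 h. With αKG it was 9.94 and 10.00 in the first hour, 9.96, 9.63, 9.09 and 10.19 at 3 to 24 h, 9.69 at 48 h and 9.84 at 72 h. The DW array at 48 h stands far below all the others. Ccl9, a chemokine known from osteoclasts, stayed between 11.94 (DW, 12 h) and 12.69 (αKG, 24 h) on all 16 arrays, with 12.46 and 12.37 at 0 h. Both 12 h arrays were its lowest. Ccl9 was near the top of the array's range, where the highest value of any feature was 13.25, and whether its differences are compressed there was not tested.

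Ccl22, a T cell attractant, was the dimmest of the 9 genes on average. It stood at 4.96 and 4.59 at 0 h, so the gap of 0.36 between these arrays was the widest of the 9 genes. With DW it was 5.40, 5.53, 5.00, 4.87, 4.72 and 5.11 at 3 to 72 h. With αKG it was 4.83 and 4.80 in the first hour, and 5.11, 5.29, 4.70, 4.65, 4.22 and 4.62 afterwards. With RANKL, 6 h was the highest time and 48 h the lowest in both arms. Early DW arrays stood 0.69 ± 0.17 above 0 h (adjusted p = 0.187), which did not pass.

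The second question was what αKG changed at matched times. Over the 6 times 1 of 9 chemokine genes passed, against 0.399% of all genes: Ccl3, higher with αKG by 1.13 ± 0.16 log2 (2.18-fold, adjusted p = 0.0306). For Ccl3 αKG exceeded DW by 0.26, 1.39, 1.08, 1.60, 1.57 and 0.85 at 3, 6, 12, 24, 48 and 72 h, so it was higher with αKG at 6 of 6 times. Ccl4, its neighbour, was also above 0 at 6 of 6 times, from 0.13 at 72 h to 1.09 at 6 h, with a mean of 0.62 ± 0.14 that did not pass (adjusted p = 0.110). Ccl22 was below 0 at 6 of 6 times, from -0.50 at 48 h to -0.22 at 24 h, with a mean of -0.34 ± 0.07 (adjusted p = 0.0878). The median over the 9 genes was 0.34 and over all genes 0.00. Ccl3 did not pass without the pair at 6, 12, 24 or 48 h (adjusted p from 0.114 to 0.142), nor without the time block (adjusted p = 0.540), and Ccl4 passed without the 72 h pair (adjusted p = 0.0373).

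**Figure D3:**
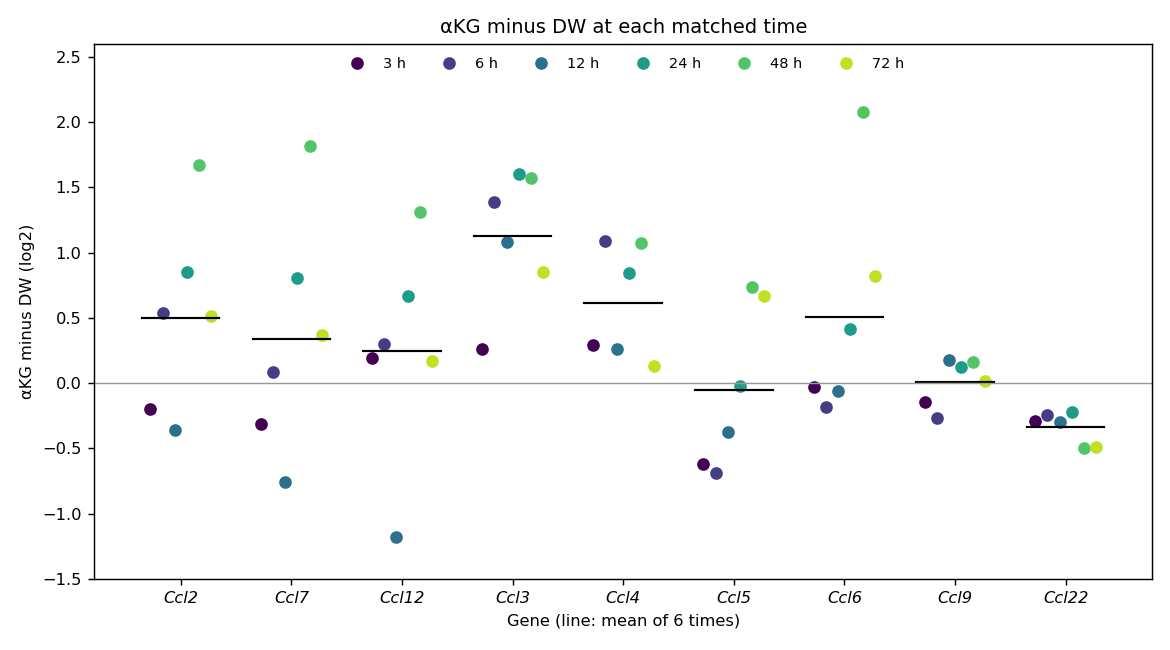
Difference in log2 level, αKG minus DW, at each of the 6 matched times (colours) for each CC chemokine gene, with the mean of the 6 as a line. Ccl3 and Ccl4 are above 0 at all 6 times, Ccl22 is below 0 at all 6, and the 48 h point is the highest for Ccl2, Ccl5, Ccl6, Ccl7 and Ccl12.

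Late arrays held most of the calls. There 3 of 9 genes passed, all higher with αKG, against 4.27% of all genes, and the median was 0.74 log2 for the 9 genes and 0.01 for all genes. Ccl6 was higher by 1.45 ± 0.24 (2.73-fold, adjusted p = 0.0132), with differences of 2.08 at 48 h and 0.82 at 72 h. Ccl3 was higher by 1.21 ± 0.25 (2.32-fold, adjusted p = 0.0319), and Ccl5 by 0.70 ± 0.12 (1.63-fold, adjusted p = 0.0142), with 0.74 at 48 h and 0.66 at 72 h. For all 3 genes both late αKG arrays lay above both late DW arrays, though for Ccl3 the αKG array at 72 h (8.75) was level with the DW array at 48 h (8.74). In the same arrays 8 of 8 osteoclast markers were lower with αKG, with a median of -1.72 log2, and 1 of 7 neutrophil markers (Camp) and 1 of 5 macrophage markers (Itgam, 0.39 ± 0.07) were higher; their part in the chemokine differences was not tested. Without the 48 h pair Ccl6 stood at 0.82 and Ccl3 at 0.85. That fit leaves 1 late array per arm, so the scatter between the late times is not counted. The late Ccl3 difference was called in 8 of 13 alternative settings. Those that missed the threshold include the fits without the pair at 12 h (adjusted p = 0.0712) or 24 h (adjusted p = 0.0693). None of the 3 passed without the time block (adjusted p from 0.334 to 0.689).

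The monocyte chemoattractants stood higher in late αKG arrays without passing. Ccl2 was at 1.10 ± 0.32 (adjusted p = 0.0956), Ccl7 at 1.09 ± 0.37 (adjusted p = 0.152) and Ccl12 at 0.74 ± 0.38 (adjusted p = 0.326). The differences were 1.67, 1.82 and 1.31 at 48 h, against 0.52, 0.37 and 0.17 at 72 h. At 72 h the levels were low: Ccl12 was at 3.56 with DW and 3.73 with αKG, under the dim cut of 4.34. Ccl7 was at 4.88 and 5.25. Whether a difference between the arms could be measured in full at such levels was not tested. Without the 72 h pair the late differences of Ccl2 and Ccl7 are those at 48 h, 1.67 and 1.82, from 1 array per arm. At 12 h the same genes had differences below 0: -0.36 for Ccl2, -0.76 for Ccl7 and -1.18 for Ccl12.

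Earlier phases had no calls among the 9 genes. In early arrays 0 passed (4 at an unadjusted p under 0.05), against 0.161% of all genes, and in intermediate arrays 0 passed (2 at an unadjusted p under 0.05), against 0.0966% (limma). Ccl5 was at -0.65 ± 0.12 in early arrays (adjusted p = 0.113), below DW at both 3 h (-0.62) and 6 h (-0.69), and passed without the 48 h or the 72 h pair (adjusted p = 0.0227 and 0.0245). Ccl3 was at 0.82 ± 0.25 in early and 1.34 ± 0.25 in intermediate arrays (adjusted p = 0.354 and 0.106), and the intermediate value passed without the 48 h or the 72 h pair (adjusted p = 0.00816 and 0.00814). Ccl9 was at -0.21 ± 0.06 in early arrays and 0.15 ± 0.06 in intermediate arrays (adjusted p = 0.332 and 0.477).

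The αKG difference itself changed between early and late arrays for 1 of 9 genes, against 0.605% of all genes. For Ccl5 the late difference exceeded the early one by 1.35 ± 0.17 log2 (adjusted p = 0.0183): lower with αKG at 3 and 6 h, higher at 48 and 72 h. This did not pass without the 3 h pair (1.39, adjusted p = 0.217), without the 6 h pair (1.32, adjusted p = 0.277) or without the time block (adjusted p = 0.756). For Ccl6 the late difference exceeded the early one by 1.55 ± 0.34 (adjusted p = 0.0784), and it passed without the 48 h pair (0.93, adjusted p = 0.00927) or the 72 h pair (2.18, adjusted p = 0.00175). The same change was above 0 without passing for Ccl7, at 1.21 ± 0.53 (adjusted p = 0.338), and for Ccl2, at 0.93 ± 0.45 (adjusted p = 0.396). For Ccl3 the change was 0.39 ± 0.35 and for Ccl4 -0.08 ± 0.35, neither past the threshold.

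**Figure D4:**
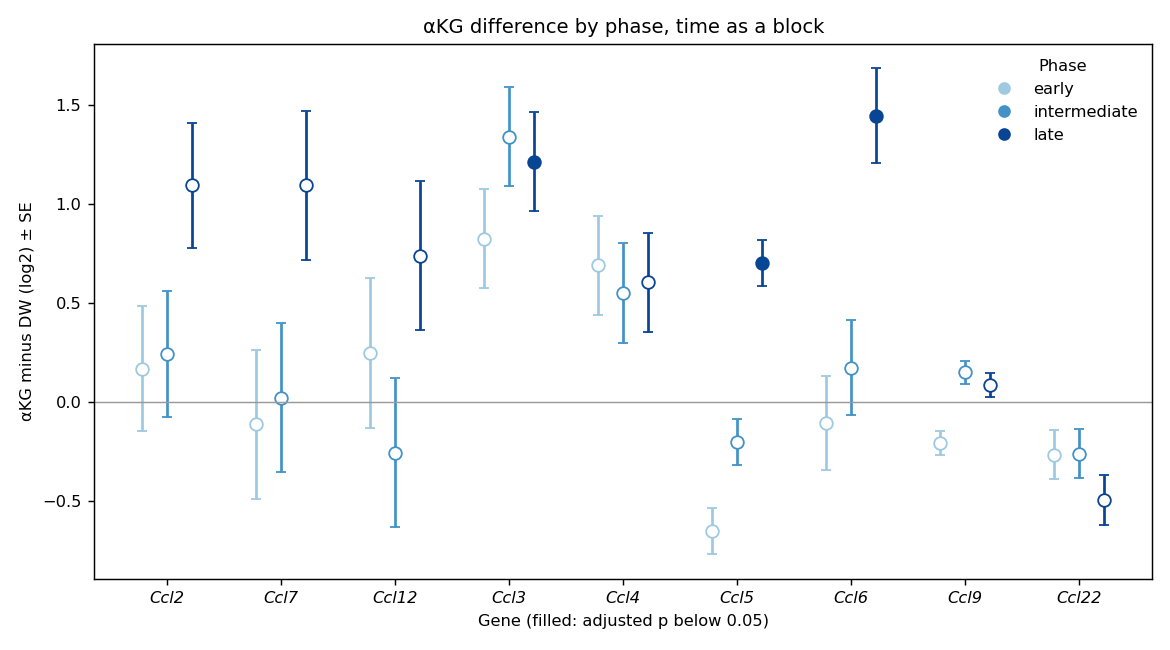
αKG minus DW in log2, with its standard error, for each CC chemokine gene in early, intermediate and late arrays, from the fit with time as a block; filled points have an adjusted p below 0.05. The filled points are the late differences of Ccl3 (1.21), Ccl5 (0.70) and Ccl6 (1.45).

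Other genes of the chemokine system were taken from fixed lists. Of 12 other CC ligand genes 10 were measured and 7 tested. Among these, 0 passed in any of the 13 comparisons (limma), against 0% to 33.6% of all genes depending on the comparison. At an unadjusted p under 0.05 each comparison had at most 1. The means of the 7 tested ligands ran from 4.48 (Ccl1) to 6.30 (Ccl25) log2. Of 9 CC receptor genes measured 5 were tested. Ccr1, the receptor of Ccl3, Ccl5, Ccl6 and Ccl9, was lower in late αKG arrays by -2.03 ± 0.18 (adjusted p = 0.00127), opposite in direction to Ccl3, Ccl5 and Ccl6. It stood at 8.03 and 9.38 in late DW arrays and at 6.40 and 6.94 in late αKG arrays, with 7.41 and 7.30 at 0 h. Its late αKG difference was below its early one by -1.89 ± 0.26 (adjusted p = 0.0260), which did not pass without the pair at 3, 6, 12 or 24 h (adjusted p from 0.0679 to 0.277). Without the time block neither Ccr1 value passed (adjusted p = 0.357 and 0.999). Ccr2, the receptor of the monocyte chemoattractants, was lower in late DW arrays than at 0 h by -2.49 ± 0.52 (adjusted p = 0.0165), at 4.86 and 5.56 against 7.63 and 7.77. In late αKG arrays Ccr2 stood about as low, at 4.89 and 5.73 (-2.39 ± 0.52 against the same 0 h arrays, adjusted p = 0.0513). The DW call was lost without either 0 h array (adjusted p = 0.0943 and 0.123) or the 48 h array (adjusted p = 0.0511). Of 5 atypical receptor genes 3 were tested. Ccrl2 passed the F-test for time (adjusted p = 4.79e-05), as did Ccr1, Ccr2 and Ccr3, against 33.6% of all genes.

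Of 14 genes of NF-κB and its early targets 13 were tested, and 11 of them passed the F-test for time, against 33.6% of all genes. In early DW arrays 3 were higher than at 0 h, against 0.341% of all genes: Nfkb2 (2.43 ± 0.19), Traf1 (3.06 ± 0.41) and Relb (1.68 ± 0.23). When any 1 of the 4 arrays was left out, Nfkb2 passed, and Traf1 and Relb did not (adjusted p from 0.0893 to 0.188). In early αKG arrays 5 were higher than at the same 0 h, against 0.502% of all genes: these 3 genes, Rela (0.70 ± 0.12) and Nfkbib (0.87 ± 0.15). Over the 6 matched times 0 of these genes passed for αKG (4 at an unadjusted p under 0.05; limma), against 0.399% of all genes. In late arrays 1 did, against 4.27%: Tnfaip3, an inhibitor of NF-κB (-0.75 ± 0.11, adjusted p = 0.00935), which did not pass without the 72 h pair (-0.63, adjusted p = 0.0562) or the time block (adjusted p = 0.678).

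Across the 16 arrays, Ccl2 and Ccl7 had Pearson r = 0.98, Ccl2 and Ccl12 r = 0.96, and Ccl3 and Ccl4 r = 0.95, while Ccl6 and Ccl9 had r = 0.29. These are descriptions: the arrays share times and the 0 h pair. Over the same arrays, the tested genes most like Ccl2 were Lonrf3, Atp2a2 and Bcl2l1 (r = 0.97 to 0.98), and those most like Ccl7 were Bcl2l1, Etv5 and Dab2 (r = 0.97). Ccl12 was most like Kpnb1, Ch25h and Lsm6 (r = 0.95 to 0.96). Ccl3 was most like Agfg1, Rps6ka3 and Eea1 (r = 0.92 to 0.93), and Ccl4 like Rps6ka3, Mapk1ip1l and Agfg1 (r = 0.94 to 0.95), so 2 of 3 were shared. Ccl5 was most like Cd52, Lgals3bp and Slco3a1 (r = 0.91 to 0.92), and Ccl6 like C3ar1, Plxdc1 and Itgam (r = 0.88 to 0.90). Ccl9 was most like Slc27a1, Hacd1 and Ralgapa1 (r = 0.89 to 0.91), and Ccl22 like Vasp, Btbd9 and Cyfip2 (r = 0.84).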

How the data were processed

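RNA of 16 arrays (1 colour, biotin label, whole-transcript kit per the labels' protocols) was analysed from the log2 values that the authors deposited. How probes were summarised and normalized, and on which build, is not given in the sources used here. The base of the logarithm was read from the range of the values (0.61 to 13.25), and array medians lay between 4.84 and 4.93. Of 33793 features 23521 name 1 gene, 1814 several and 8458 are unnamed here. Per gene the feature with the highest mean was kept, and the lowest 30% of genes (up to 4.34 log2) were left out. All models used limma 3.58.1 and R 4.3.3 (lmFit, eBayes with an intensity trend, Benjamini-Hochberg over all genes): phases against 0 h in 8 groups; αKG over 6 times or per phase in 12 arrays with time, matched by the labels, as a block; and an F-test for time. The fits were tested on simulated data with a scatter set below that within the groups and with large planted changes. That test does not show how well smaller differences are found in these arrays. The number of arrays limits the precision. The members, lists and tests were chosen with earlier results of these data known, and the contrasts of 12 and 72 h after the values were seen. All members were named; of other chemokine genes those called, of NF-κB genes up to 4 with the smallest p, and for likeness the 3 highest r per member, predicted and clone-named genes skipped. Alternatives were other filters, quantile normalization, median centring, no trend, the mean of a gene's features, fits of the 2 groups alone, fits with no time block, time as a line on the log2 scale, and each array or pair left out.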

Additional observations from a re-analysis of the deposited data

Results flagged for a closer look

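The αKG difference of Ccl5 changed between phases: late minus early it was 1.35 log2, by the test of that difference in limma (adjusted p = 0.0183). It was below 0 at 3 and 6 h and above 0 at 48 and 72 h. Late minus intermediate, the Ccl5 difference was 0.90 log2. It was -0.38 at 12 h and -0.02 at 24 h, the latter close to 0, against 0.74 at 48 h and 0.66 at 72 h. This change was not tested. For Ccl9, intermediate minus early was 0.36 log2, from -0.14 and -0.27 at 3 and 6 h to 0.17 and 0.13 at 12 and 24 h. Over all genes tested, the difference between the 2 arrays at 0 h had a standard deviation of 0.20 log2. The Ccl9 change was not tested either.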

How the results depend on the processing

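Counts of the 9 chemokine genes called were within 1.5 times under other filters, quantile normalization, median centring, no trend and the mean of a gene's features in all 13 planned comparisons, and no gene called under any planned setting reversed its direction. Among them, Ccl3 in late arrays (adjusted p = 0.0678) and Ccl9 in the F-test for time (adjusted p = 0.0562) missed the threshold without the intensity trend. With only the 2 groups compared, the count was 4 in early DW arrays (1 in the fit of 8 groups), 3 in fast and 3 in early αKG arrays (0 and 0), and 0 in intermediate DW (1), late DW (2) and intermediate αKG arrays (1). Without the time block, counts were 0 over 6 times (1), 0 in late arrays (3) and 0 for late minus early (1). A line in log2 time gave 3 in place of 8. Leaving out arrays or pairs gave 0 in early DW arrays, 0 to 1 in intermediate DW, 0 to 2 in late DW and 0 to 1 in intermediate αKG arrays against 0 h. For the αKG difference it gave 0 to 2 over 6 times, 0 to 1 in early, 0 to 1 in intermediate and 2 to 5 in late arrays, and 0 to 2 for late minus early. For 12 h against 6 and 24 h, leaving out single arrays gave 3 to 7. Leaving out an array or pair of a compared phase or time leaves 1 array there per arm or group. That phase or time then adds no scatter of its own, so these p-values rest on the other arrays. The causes were not tested. Background could not be set per gene, so low values such as those of Ccl22 and of Ccl12 at 72 h have no known floor. Counts over all genes moved as well. With only the 2 groups compared they went from 53 to 775 in early DW, 121 to 0 in intermediate DW, 1031 to 115 in late DW, 0 to 96 in fast αKG, 78 to 794 in early αKG and 104 to 0 in intermediate αKG arrays. For the αKG difference they went from 62 to 20 over 6 times without the time block (32 without the trend), from 25 to 0 in early arrays (6 without the trend, 5 with the lowest 50% left out), from 15 to 1 in intermediate arrays (5 without the trend), from 663 to 7 in late arrays (323) and from 94 to 0 for late minus early (17). The line in log2 time gave 1272 in place of 5213. Leaving out 1 array gave from 1 to 2 genes in early DW, 4 to 67 in intermediate DW, 251 to 2179 in late DW, 1 to 12 in early αKG, 0 to 24 in intermediate αKG and 29 to 116 in late αKG arrays (222 with all arrays). Leaving out a pair gave from 4 to 174 over 6 times, from 0 to 149 in early arrays, from 0 to 312 in intermediate arrays, from 275 to 1882 in late arrays and from 1 to 1504 for late minus early.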
